A study of Glycine max with 16 samples.

Results

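The soybean chalcone synthase family was followed through leaves of 4 lines, watered or dried in air. It was represented by 9 genes named by their identifiers: CHS1 (Glyma.08G109400), CHS2 (Glyma.05G153200), CHS3 (Glyma.08G109300), CHS5 (Glyma.08G109200), CHS6 (Glyma.09G075200), CHS7 (Glyma.01G228700), CHS8 (Glyma.11G011500), CHS9 (Glyma.08G109500) and CHS10 (Glyma.02G130400). They are 9 of 56044 genes in the deposited table, and all 9 passed the filter that kept 34400 genes, those reaching 1 RPKM in 2 or more columns. RPKM scales reads by gene length and by the mapped reads of the library, so levels can be compared between genes. The names could not be checked against the table, which holds identifiers only. The RefSeq gene table of assembly Glycine_max_v4.0 lists each of the 9 symbols once, on the chromosome that the identifier names, and lists CHS5, CHS3, CHS1 and CHS9 as 4 consecutive genes on chromosome 8. It lists 8 other CHS symbols, which are not paired with identifiers and were not analysed here.

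The plants were 2-week-old soybean (Glycine max) seedlings of the null line (B001A in the table) and of the transgenic lines A004A, A005B and B010C, which by the series title over-express the transcription factor gene GmWRKY54. Trifoliate leaves were taken from well-watered plants or after 6 h of dehydration in air. The sources used here do not give the promoter of the transgene, and each line is a single line, so a difference between lines is a comparison of lines and not of genotypes in general. The labels list 16 samples in 8 groups of 2, and the table gives 1 column for each group, so no value has a replicate within its group.

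Chalcone synthase joins p-coumaroyl-CoA with malonyl-CoA to make naringenin chalcone, and so opens the flavonoid pathway. Its product leads to isoflavones, which are typical of legumes, and also to flavonols, anthocyanins and proanthocyanidins, which serve in leaves as screens against light, as antioxidants and in defence. Soybean carries many copies of the gene. CHS7 and CHS8 are known for isoflavone synthesis in the soybean seed, and the copies clustered on chromosome 8 include the inverted repeat that gives rise to the small RNAs silencing the family in yellow seed coats. The copies are very similar in sequence, and the sources used here do not give how the authors' counting treated reads that match several of them. Values of single members are therefore uncertain to that extent, most of all between CHS1, CHS3, CHS5 and CHS9 and between CHS7 and CHS8, and sums are given beside them.

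The sum of RPKM over all genes lay between 636011 and 818267 per column, and 28847 to 31333 genes reached 1 RPKM. The number of reads behind each column is unknown. The sources used here do not pair GmWRKY54 with an identifier. Glyma.10G011300, which may be that gene, stood when watered at 4.46 times the null level in line A004A, 6.37 times in A005B and 0.790 times in B010C. When dehydrated it stood at 10.2, 20.4 and 1.55 times null in these lines. If it is the transgene, these levels do not bear out the label of B010C. The labelled tissue was not checked against leaf markers, and other genes of the flavonoid pathway were not analysed here, because identifiers are not paired with gene names in the sources used here.

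CHS7 and CHS8 made up most of the family's transcript in every column. CHS7 stood at 196 RPKM in watered null leaves, 78.4 in A004A, 75.7 in A005B and 115 in B010C. In dehydrated leaves it stood at 539 RPKM in null, 134 in A004A, 206 in A005B and 429 in B010C. Null was highest and B010C second in both treatments, and only the watered null value overlapped with the dehydrated range. CHS8 stood at 81.5 RPKM in watered null leaves, 32.1 in A004A, 32.7 in A005B and 43.7 in B010C. After drying it stood at 357 RPKM in null, 84.0 in A004A, 106 in A005B and 273 in B010C. All dehydrated values of CHS8 lay above all watered ones, and A004A and A005B were the lowest lines in both treatments. Averaged over the 8 columns, the level of CHS7 lay above that of 99.3% of the genes in the table and that of CHS8 above 98.5%.

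**Figure D1:**
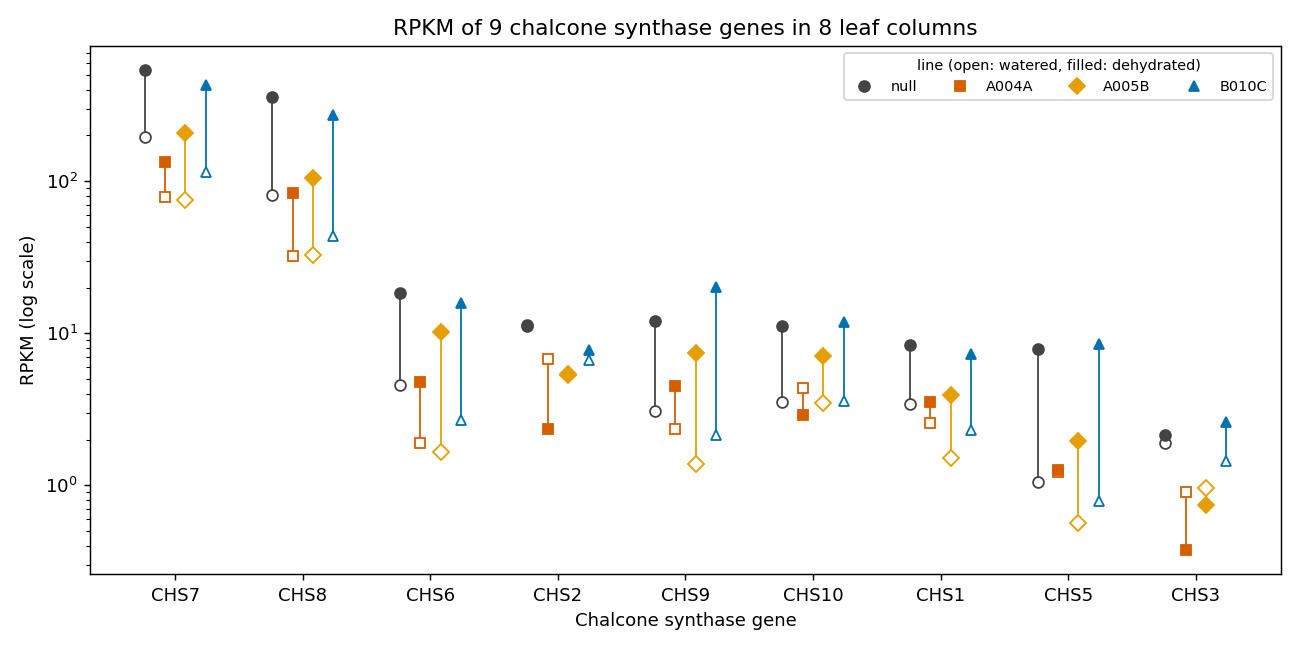
RPKM on a log axis for each of the 9 genes, in order of mean level, with 1 point per line and treatment (open, watered; filled, dehydrated) joined by a line. CHS7 and CHS8 lie above 30 RPKM in every column, the other 7 genes at or below 20.3 RPKM.

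The remaining 7 genes were low, at 0.375 to 20.3 RPKM over all columns. In watered leaves CHS2 was the highest of them, at 5.43 to 11.1 RPKM. CHS10 lay at 3.46 to 4.40 RPKM, CHS6 at 1.65 to 4.54 and CHS1 at 1.51 to 3.41. CHS9 lay at 1.39 to 3.08 RPKM, CHS3 at 0.909 to 1.90 and CHS5 at 0.569 to 1.23. The order from CHS7 through CHS8 and CHS2 to CHS10 held in 4 of 4 lines, and each step was larger than its SD over the 4 lines on the log2(RPKM + 1) scale. The steps from CHS10 to CHS6, from CHS6 to CHS1 and from CHS3 to CHS5 were smaller than their SD, so the order of those neighbours was not resolved. In dehydrated leaves CHS6 took the third place, with 4.80 to 18.5 RPKM, and CHS2 came sixth, with 2.36 to 11.4 RPKM. There the step from CHS8 down to CHS6 was 3.83 ± 0.42 (SD, n = 4 lines) on that scale. The steps from CHS6 to CHS9, from CHS2 to CHS1 and from CHS1 to CHS5 were again within their SD.

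The summed RPKM of the family was 306 in watered null leaves, 131 in A004A, 123 in A005B and 178 in B010C. In dehydrated leaves it was 968 in null, 238 in A004A, 348 in A005B and 777 in B010C. The lowest dehydrated sum was thus below the highest watered one. CHS7 and CHS8 together held 84.6% to 90.7% of the sum in watered and 89.5% to 92.6% in dehydrated leaves. The shares of CHS7, CHS8, CHS2, CHS3 and CHS6 did not overlap between the treatments. Shares of this sum have no counterpart over all genes. They depend on each other, so a lower share need not mean a lower RPKM. The RPKM values of CHS2 and CHS3 themselves overlapped between watered and dehydrated leaves. The CHS7 share was 62.5% ± 2.15 (SD, n = 4 lines) in watered and 56.6% ± 1.74 in dehydrated leaves, and the CHS8 share 25.5% ± 1.17 and 34.4% ± 2.86. The ratio of CHS7 to CHS8 was 2.32 to 2.63 in watered leaves and 1.51 to 1.95 in dehydrated leaves, with no overlap. The CHS2 share went from between 3.62% and 5.21% to between 0.993% and 1.54%. That of CHS3 was likewise lower in dried leaves, at 0.158% to 0.338% after 0.619% to 0.809%, and that of CHS6 higher, at 1.91% to 2.95% after 1.34% to 1.51%. The 4 clustered genes of chromosome 8 together held 3.08% to 5.40% of the sum in watered leaves and 3.15% to 4.99% in dehydrated leaves, so their joint share did not separate the treatments.

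**Figure D2:**
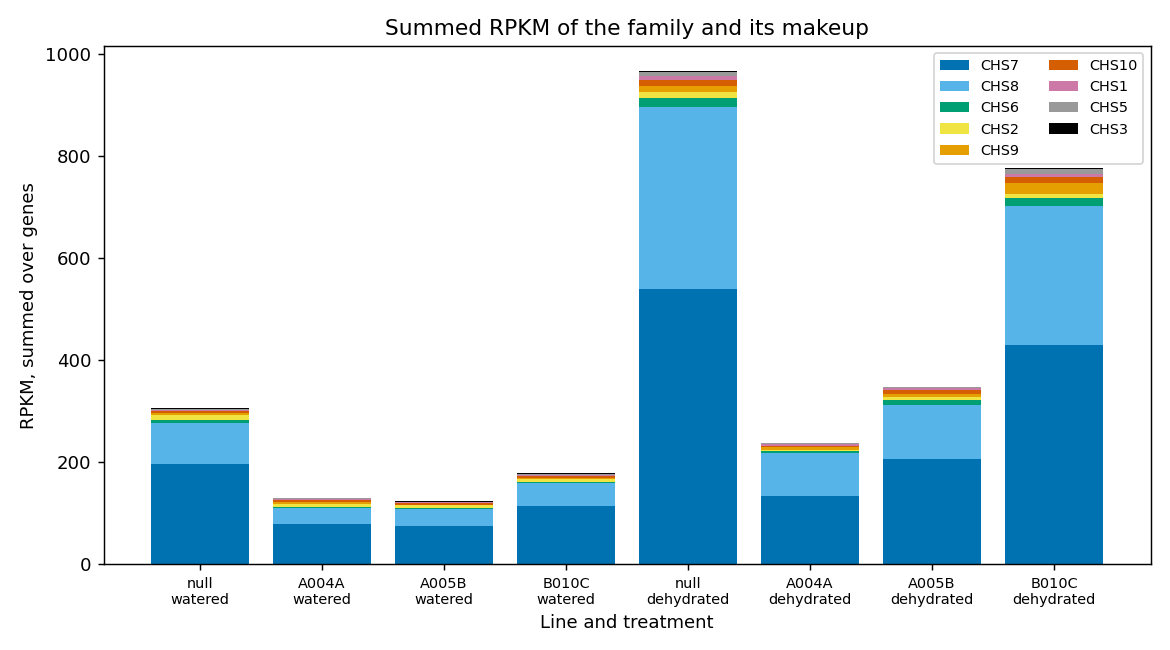
Summed RPKM of the 9 genes in each column, stacked by gene, for the 4 lines watered and dehydrated. The bars reach 123 to 306 RPKM in watered leaves and 238 to 968 RPKM in dehydrated leaves, and CHS7 and CHS8 fill most of each bar.

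Drying was compared with watering over the 4 lines in a limma fit on log2(RPKM + 1) with terms for line and treatment, in which the spread comes from how the change varied between lines. Watered plants kept for another 6 h are not among the groups, so drying and elapsed time cannot be told apart. The p-values measure only the spread between these columns, and in whole leaves fewer expressing cells and less RNA per cell cannot be told apart. Of the 9 genes, 7 rose and 0 fell at an adjusted p under 0.05. Among all genes tested 28.7% were called higher and 40.0% lower, so 7 of 9 higher stands beside a background of 28.7%. The median change of the 9 genes was 1.36 on the log2 scale and that of all 34400 genes was -0.18. Other scalings moved the latter to -0.072 (median-of-ratios) or -0.051 (quantile), and the same 7 genes, 7 shared of 7, rose under both. Over all genes tested, 11050 of 34411 were called higher after median-of-ratios scaling and 11217 of 34370 after quantile scaling.

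CHS8 had the largest mean rise, 1.94 ± 0.23 (SE) on the log2 scale (limma, adjusted p = 0.000186), higher in 4 of 4 lines. CHS6 went from 4.54 to 18.5 RPKM in null, from 1.89 to 4.80 in A004A, from 1.65 to 10.3 in A005B and from 2.69 to 15.8 in B010C. It rose by 1.77 ± 0.21 (limma, adjusted p = 0.000191), with every dehydrated value above every watered one. For CHS9 the values went from 3.08 to 12.1 RPKM in null, from 2.33 to 4.51 in A004A, from 1.39 to 7.39 in A005B and from 2.15 to 20.3 in B010C. It rose by 1.74 ± 0.29 (limma, adjusted p = 0.00114), again without overlap. These 3 genes lie on chromosomes 11, 9 and 8. The mean changes of the clustered genes ran from 0.01 (CHS3) to 1.74 (CHS9), and a link to position was not tested. CHS7, the most abundant copy, rose by 1.39 ± 0.22 (adjusted p = 0.000951). CHS5 rose by 1.36 ± 0.37 (adjusted p = 0.0127), with the widest scatter between lines. CHS1, the copy between CHS3 and CHS9 in the chromosome 8 cluster, rose by 0.94 ± 0.18 (adjusted p = 0.00252), to 3.56 RPKM in A004A, 3.93 in A005B, 7.34 in B010C and 8.40 in null. CHS10 rose by 0.83 ± 0.31 (adjusted p = 0.0464), which was close to the threshold. It was higher in 3 of 4 lines and did not pass without null (adjusted p = 0.176), A005B (0.0911) or B010C (0.165), over a range of 0.00153 to 0.176 for all alternatives. Without null CHS5 no longer passed (adjusted p = 0.0639, the highest over its alternatives, which went down to 0.00252).

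CHS2 and CHS3 did not pass. CHS2 went from 11.1 to 11.4 RPKM on drying in null, from 6.80 to 2.36 in A004A, from 5.43 to 5.35 in A005B and from 6.69 to 7.73 in B010C. The mean log2 change was -0.25 ± 0.24 (SE, limma, adjusted p = 0.367), and it turned to 0.065 without A004A. CHS3, the neighbour of CHS5 and CHS1, went from 1.90 to 2.15 RPKM in null, from 0.909 to 0.375 in A004A, from 0.956 to 0.744 in A005B and from 1.44 to 2.63 in B010C. Its mean change was 0.01 ± 0.19 (adjusted p = 0.957), and at this level the added value of 1 damps any change. All 4 dehydrated columns lay above all 4 watered columns for 5 of the 9 genes (CHS1, CHS5, CHS6, CHS8 and CHS9), where 27.5% of all genes tested did so.

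**Figure D3:**
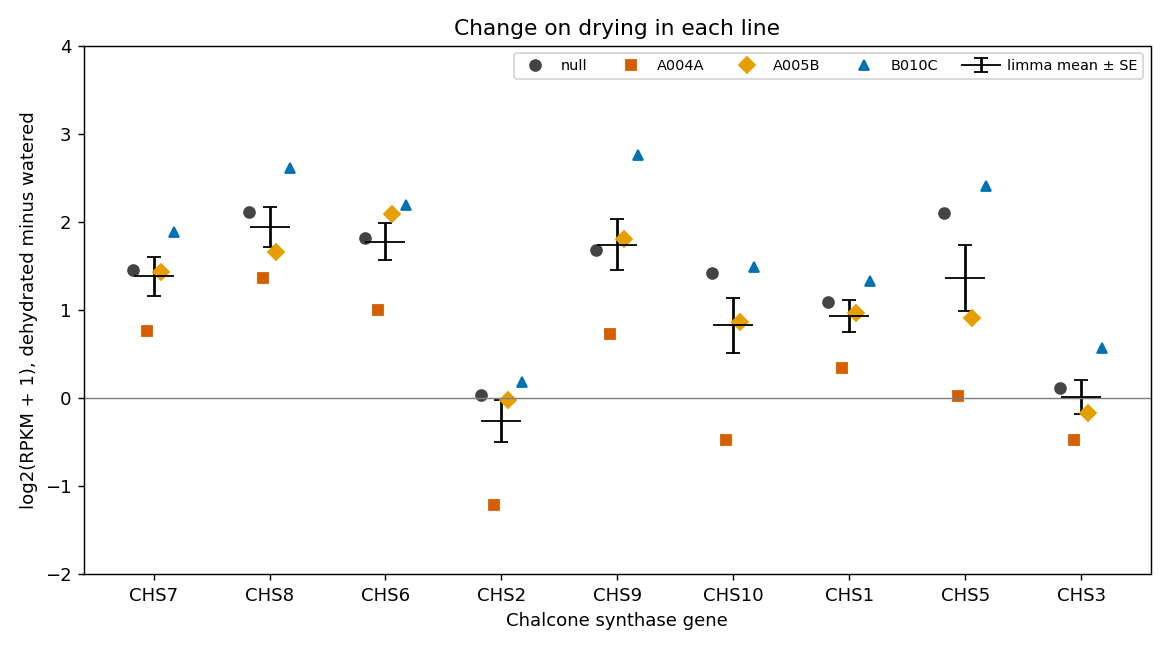
Difference in log2(RPKM + 1) between dehydrated and watered leaves for each gene, with 1 point per line and the limma mean ± SE over 4 lines as a black bar. A004A gives the lowest point and B010C the highest for all 9 genes, and the means run from -0.25 for CHS2 to 1.94 for CHS8.

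The genes listed on either side of the chromosome 8 cluster were read for comparison by the numbers of their identifiers. Glyma.08G109100, next to CHS5, stood at 4.62 to 5.88 RPKM in watered and 28.3 to 40.5 RPKM in dehydrated leaves (limma, log2 change 2.50, adjusted p = 8.72e-06). Glyma.08G109600, next to CHS9, stood at 8.95 to 11.3 RPKM in watered leaves and at most 13.4 RPKM in dehydrated ones (log2 change 0.27, limma, adjusted p = 0.116). Neither flank showed the order of lines seen in the cluster. In dehydrated leaves both flanking genes were highest in A004A, at 40.5 and 13.4 RPKM, whereas CHS5, CHS3, CHS1 and CHS9 were all lowest in that line.

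How far over-expression lines differed from null in the family was asked first in watered leaves. CHS6, CHS7 and CHS8 stood lowest against null. CHS7 was at 0.400 times the null RPKM in A004A, 0.386 times in A005B and 0.586 times in B010C. For CHS8 the ratios were 0.394, 0.401 and 0.536. CHS6 was at 0.416, 0.363 and 0.592 times null, while CHS10 was at 1.25, 0.979 and 1.01 times null. Null was the highest line for 7 of 9 genes, against 28.9% of all genes tested, and A005B the lowest for 7 of 9, against 21.6%. Differences of 2-fold or more on the log2(RPKM + 1) scale were found below null for 2 genes in A004A (CHS7 and CHS8), where 1.54% of all genes were that much lower. In A005B they were found for 3 genes (CHS6, CHS7 and CHS8) beside 1.25% of all genes, and in B010C for 0 beside 1.09%. Differences of that size above null were found for 0 of the 9 in A004A, A005B and B010C, beside 0.849%, 1.03% and 0.558% of all genes. With 0.1 added in place of 1, A005B had 6 genes 2-fold or more below null. The share of all genes was not computed with 0.1 added. These comparisons share the null column and have no replicate check.

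In dehydrated leaves the lines lay further apart. The highest line stood 2.36 times (CHS1) to 7.01 times (CHS3) above the lowest, compared with 1.27 times (CHS10) to 2.75 times (CHS6) in watered leaves. CHS1 hardly differed from its watered 2.26 times, and CHS3 was as low as 0.375 RPKM. Of all genes, the share 2-fold or more below null was also larger than when watered in A004A (8.10% against 1.54%). The same held in A005B (3.26% against 1.25%) but not in B010C (0.985% against 1.09%). CHS8 was at 0.235 times null in A004A, 0.295 times in A005B and 0.765 times in B010C. CHS7 was at 0.249, 0.382 and 0.797 times null. CHS5 stood at 7.86 RPKM in null and 8.53 in B010C but at 1.26 in A004A and 1.95 in A005B. A004A was lowest for 9 of 9 genes, beside 46.0% of all genes tested. Under either other scaling it was lowest for 8, and the share of all genes was not computed there. A004A and A005B both lay below null and B010C for 9 of 9 genes, beside 31.4% of all genes, and in watered leaves for 4 of 9 beside 17.2%. The highest line was null for 5 genes and B010C for 4 (CHS3, CHS5, CHS9 and CHS10), where 45.4% and 18.0% of all genes had these lines highest. All 9 genes were 2-fold or more below null in A004A, beside 8.10% of all genes. Under either other scaling 7 were, again with no share of all genes computed. In A005B 3 genes were that far below null as deposited (CHS5, CHS7 and CHS8), beside 3.26%, and in B010C 0 were, beside 0.985%. With 0.1 added in place of 1, A005B had 6 such genes, and the share of all genes was not computed. Between dehydrated A004A and B010C, which does not involve null, 8 of 9 genes were 2-fold or more lower in A004A beside 4.82%, with CHS1 the exception at 0.485 times, a difference of -0.87 on the log2(RPKM + 1) scale.

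**Figure D4:**
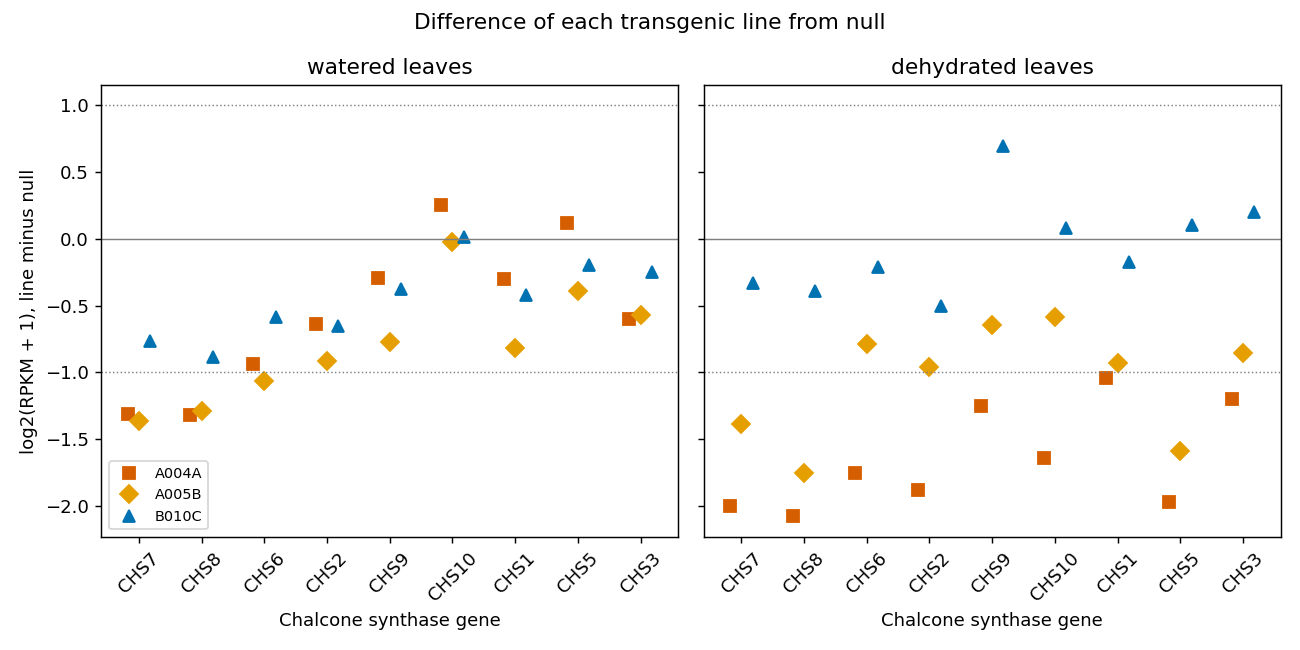
Difference in log2(RPKM + 1) of each transgenic line from null for each gene, in watered (left) and dehydrated (right) leaves, with dotted lines at a 2-fold difference. In dehydrated leaves the points of A004A lie lowest, from -1.04 to -2.08, and those of B010C highest, from -0.50 to 0.70.

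The planned test of the 3 transgenic lines together against null called 0 of the 9 genes. In watered leaves the median difference of the 9 genes was -0.51 on the log2 scale, beside -0.012 for all genes, and CHS8 had the largest (-1.17 ± 0.59 SE, limma, adjusted p = 1). Over all genes 0 were called, 0%. At an unadjusted p under 0.05, 0 of the 9 passed, beside 3.21% of all genes. In dehydrated leaves the median was -0.92 beside -0.16 for all genes, and CHS8 was again furthest (-1.40 ± 0.59, adjusted p = 0.339). Of all genes 0.00581% were called, and 2 of the 9, CHS2 and CHS8, passed at an unadjusted p under 0.05 beside 11.3% of all genes in that direction. This fit averages A004A and A005B with B010C, whose dehydrated values lay above theirs for all 9 genes.

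After the values had been seen, each pair of lines was therefore compared over both treatments in the fit with terms for line and treatment. Limma called 0 of the 9 genes at an adjusted p under 0.05 in each of the 6 pairs. The share of all genes called was 0% for A004A against null, A005B against null and A005B against A004A, 0.00872% for B010C against null or A004A and 0.00581% for B010C against A005B. The log2 difference of CHS8 was -1.70 ± 0.32 (SE) for A004A against null (limma, adjusted p = 0.451) and -1.52 ± 0.32 for A005B against null (adjusted p = 0.975). For CHS7 it was -1.66 ± 0.32 and -1.37 ± 0.32 (adjusted p = 0.451 and 0.975). The p-values rest on how line differences varied between the treatments and not on replicates within a group. Copies that may share reads are not independent counts. At an unadjusted p under 0.05, 6 of 9 genes were lower in A004A than in null, beside 9.08% of all genes. For A005B against null 6 of 9 were lower, beside 2.47%, and for B010C against null 0 of 9, beside 1.03%. B010C lay above A004A at that level for 4 of 9 genes beside 3.82%, and above A005B for 3 of 9 beside 1.16%. Between A005B and A004A 0 of 9 passed at that level, beside 1.5% of all genes in either direction, with log2 differences from -0.20 to 0.42. The lower levels in A004A and A005B therefore did not pass the correction over all genes, and comparisons with null share its columns.

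The change on drying also differed by line, with A004A lowest and B010C highest on the log2(RPKM + 1) scale. Null and A005B had no fixed order. On that scale CHS6 rose by 2.09 in A005B and 1.81 in null, but CHS10 by 0.86 and 1.42. Summed over the family, RPKM after drying was 3.16 times the watered value in null, 1.82 times in A004A, 2.82 times in A005B and 4.36 times in B010C. CHS5 showed the widest range, from 1.02 times in A004A through 3.43 in A005B and 7.45 in null to 10.8 in B010C. CHS10 stood at 3.16 times in null, 2.05 in A005B and 3.31 in B010C but at 0.658 times in A004A, where it went from 4.40 to 2.90 RPKM. The log2 change was lowest in A004A for 9 of 9 genes, beside 39.0% of all genes tested, and highest in B010C for 9 of 9, beside 21.4%. On the log2(RPKM + 1) scale, the number of the 9 genes higher by 2-fold or more was 7 in null (15.8% of all genes), 2 in A004A (16.7%), 4 in A005B (17.7%) and 7 in B010C (17.6%). The count for A005B depended on the setting, with 5 after median-of-ratios scaling, 7 after quantile scaling and 7 with 0.1 added in place of 1, as many as in null and B010C. The shares of all genes were not computed for these settings. In A004A 1 gene, CHS2, was 2-fold or more lower on the log2(RPKM + 1) scale, beside 28.3% of all genes, and CHS3 was at 0.412 times its watered RPKM. The median change of the 9 was 1.45 in null, 0.34 in A004A, 0.97 in A005B and 1.89 in B010C. In the same order the medians over all genes were -0.059, -0.30, -0.16 and -0.17. For the response of the transgenic lines against null, the fit used means of null or transgenic columns and had no term for line. Its calls therefore cannot settle whether the change within each line differed from that in null. The test of a different response in the transgenic lines together than in null called 0 of the 9, beside 0.00291% of all genes. At an unadjusted p under 0.05, 0 of the 9 passed, beside 9.56% of all genes. The largest difference was that of CHS5 (-0.99 ± 0.98 SE, limma, adjusted p = 0.759).

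Over the 8 columns, 7 genes followed each other closely and CHS2 and CHS3 less so. Pearson correlations of log2(RPKM + 1) were 0.841 to 0.986 within CHS1, CHS5, CHS6, CHS7, CHS8, CHS9 and CHS10. CHS2 and CHS3 correlated with these 7 at 0.233 to 0.678 and with each other at 0.852. The closest pair was CHS7 and CHS8, which lie on chromosomes 1 and 11 and may share reads. How far shared reads entered these correlations was not tested. The 8 columns share the treatment and the line order given above, so these values describe the pattern and no more. Outside the family, the genes most like the mean of the 9 among 19583 genes of at least 5 RPKM on average were Glyma.13G364000 (r = 0.995), Glyma.04G107500 (0.994), Glyma.06G275700 (0.993), Glyma.13G196500 (0.993) and Glyma.13G225700 (0.991). Glyma.04G107500, for example, stood at 25.4 RPKM in watered and 74.6 in dehydrated null leaves and at 19.0 and 19.9 in A004A. In all, 551 genes had r above 0.9, and the sources used here give these identifiers no name.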

How the data were processed

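The values are RPKM as the authors deposited them, 1 column for each line and treatment. The sources used here do not give how the 2 samples of a group entered a column, nor the counting program, genome build or annotation. TopHat is named per the submitters' processing notes. Columns were tied to groups by line name and the prefix for dehydration, and 0 columns were unused. Low values did not share 1 step per column: the commonest ratio, within 0.003 on the log2 scale, held for 0.275% to 2.96% of genes under 0.3 RPKM over 28 column pairs, so depth is unknown and no count model was used.

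Genes reaching 1 RPKM in 2 or more columns were fitted as log2(RPKM + 1), a scale on which fold changes of low genes are understated, with limma 3.58.1 in R 4.3.3 (empirical Bayes with a trend, two-sided, Benjamini-Hochberg over 34400 genes, threshold 0.05). One fit had terms for line and treatment (3 residual degrees of freedom), the other 4 means of null or transgenic columns (4 residual degrees of freedom), where the lone null column was assumed to vary as the others. Fits were run on simulated data only to check that planted changes were recovered on average. The simulation held no change on drying that differed between lines, so it does not show how well the p-values hold here. Alternatives were a pseudocount of 0.1, no filter, a mean of at least 5 RPKM, median-of-ratios and quantile scaling, no line term, no trend and leaving out each line. Differences of single columns carry no p. All 9 members are named; the genes with a like pattern were the 5 with the highest r. The members and lists were chosen with earlier results of these data known. Planned lists of pathway and marker genes could not be built, since 0 identifiers are found in the gene table at hand.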

Additional observations from a re-analysis of the deposited data

Results flagged for a closer look

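For 3 of the 9 genes the change on drying had opposite directions in different lines. The distance between the highest and the lowest line on the log2(RPKM + 1) scale was 1.40 for CHS2, 1.04 for CHS3 and 1.96 for CHS10. CHS2 was at 0.347 times its watered RPKM in dried A004A leaves and at 1.15 times in B010C, CHS3 at 0.412 and 1.82 times, and CHS10 at 0.658 and 3.31 times. With 1 column per line and treatment these differences between lines were not tested.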

How the results depend on the processing

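On drying 5 to 7 genes of the family rose under every alternative, and each set lay within the 7 named above. With a mean of at least 5 RPKM, 5 rose of 6 tested, beside 6616 of 19589 genes over all. Without null 5 of 9 rose, beside 9208 of 33886 genes over all, and without A004A 7, beside 9044 of 33583. Without A005B 6 rose, beside 8736 of 33713, and without B010C 6, beside 8618 of 33951. CHS10 passed no longer without a filter (adjusted p = 0.0982), with a pseudocount of 0.1 (0.0551), without null (0.176), without A005B (0.0911) or without B010C (0.165), over a range of 0.00153 to 0.176. The tests of lines called 0 of the 9 under each alternative run. The family's summed change on drying kept its direction in each line, and without CHS7 it was 3.89 times in null, 1.99 in A004A, 2.99 in A005B and 5.49 in B010C. After median-of-ratios or quantile scaling, 7 of 9 genes instead of 9 were 2-fold or more below null in dehydrated A004A, A004A was lowest for 8 instead of 9, and A004A and A005B lay below null and B010C for 9 of 9. With a pseudocount of 0.1, 6 genes instead of 3 were 2-fold or more below null in A005B in each treatment, and B010C had the highest change on drying for 8 instead of 9. In A005B 4 genes were 2-fold or more higher after drying, against 5 (median-of-ratios), 7 (quantile) and 7 (pseudocount of 0.1). For these counts from single columns under the alternatives, the shares of all genes were not computed.

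Signs that turned belonged to differences that had not passed a test, and the cause was not tested. The drying effect of CHS3 was -0.10 with a pseudocount of 0.1 and -0.17 to 0.17 leaving out a line, and that of CHS2 -0.40 to 0.065. In the response of transgenic lines against null, CHS1 was at 0.029 (quantile), CHS6 at 0.12 (pseudocount), 0.11 (median-of-ratios) and 0.19 (quantile), and CHS7 at 0.093 (median-of-ratios). Leaving out a transgenic line gave -0.43 to 0.063 for CHS1, -0.65 to 0.051 for CHS2, -0.44 to 0.082 for CHS3, -0.27 to 0.33 for CHS6, -0.35 to 0.21 for CHS7, -0.61 to 0.021 for CHS8 and -0.42 to 0.598 for CHS9. It gave -0.0046 to 0.13 for CHS10 when watered and -0.95 to 0.025 for CHS9 when dehydrated, against null. For B010C against null, CHS3 was at 0.054 (median-of-ratios) and 0.058 (quantile) and CHS5 at 0.042 under both, and for A005B against A004A, CHS9 was at -0.0037 (pseudocount) and -0.036 (median-of-ratios). No paired analysis was possible because the columns carry no replicate number, as far as replicates go. The drying fit pairs the columns of each line, and without its line term 7 genes of the family rose, beside 10195 of 34400 over all. The planned lists of pathway genes were not run, and a mean of at least 5 RPKM left out CHS1, CHS3 and CHS5. Read depth is unknown, so the counting error of the low members is unknown too.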

Other observations

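Glyma.08G110500 and Glyma.08G110700, after CHS9 by the numbers of their identifiers, were picked after their values had been seen. Both were lower in A004A and A005B than in null and B010C after drying, as were 31.4% of all genes tested. Other genes of that stretch are not given here. Glyma.08G110500 went from 1.22 to 7.67 RPKM on drying in null, from 0.916 to 1.31 in A004A, from 0.317 to 2.27 in A005B and from 0.729 to 7.15 in B010C (limma, log2 change on drying 1.45, adjusted p = 0.00373). Glyma.08G110700 went from 0.795 to 6.03 RPKM in null, from 0.737 to 1.02 in A004A, from 0.441 to 1.76 in A005B and from 0.641 to 5.71 in B010C (1.29, adjusted p = 0.00655). Since the choice followed the values, the limma p-values and the share of all genes are no test of either gene. The sources used here give these identifiers no name, so whether they are further chalcone synthase copies is not known.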
